A study of Rattus norvegicus with 12 samples.

Results

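The serotonin receptor genes of the central amygdala (CeA) were examined in male Sprague Dawley rats exposed to chronic intermittent ethanol (CIE) vapor and in air-breathing Control rats. The genes were taken by symbol: *Htr1a*, *Htr1b*, *Htr1d*, *Htr1f*, *Htr2a*, *Htr2c*, *Htr3a*, *Htr4*, *Htr6* and *Htr7*, which are 10 of the 37209 genes in the table of read counts. All 10 were found and all 10 passed the filter on low counts, as did 20944 genes in all. The series held 12 rats of 14 to 16 weeks, with CIE rats numbered 1 to 6 and Control rats 7 to 12. CIE rats had gone through weeks of daily ethanol vapor and were killed at the end of the last exposure, still intoxicated, whereas Control rats had breathed air throughout. Each library was poly-A RNA from a punch of 1 hemisphere of 1 rat, so that it held all the cell types of the punch.

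Serotonin reaches the CeA in fibers of raphe neurons in the brainstem, which hold the synthesis enzyme and the transporter. Receptors are made by cells that the fibers contact and, as with *Htr1a*, also by raphe neurons. The 5-HT1 receptors couple to Gi/o proteins and lower cyclic AMP, the 5-HT2 receptors couple to Gq/11 and phospholipase C, 5-HT4, 5-HT6 and 5-HT7 couple to Gs and raise cyclic AMP, and 5-HT3 is an ion channel opened by serotonin. In the amygdala, serotonin acting on several of these receptors is known to shape fear and anxiety-like behavior and the excitability of GABAergic neurons. In whole tissue, fewer cells of a type and less RNA per cell cannot be told apart.

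Total counts ran from 39082548 (Control rat 11) to 95647601 (Control rat 8), with CIE libraries between 61978486 and 78441691. Levels are given as CPM, read counts scaled to a common library size with edgeR's TMM factors, and a fold change is CIE over Control. Of all genes tested, 76 (0.363%) passed a false discovery rate (FDR) of 5% and 1740 (8.31%) passed the nominal threshold (a *p* value below 0.05), of which 837 were up-regulated and 903 down-regulated, with a median log2 fold change of 0.00 over all genes. All 8 tested markers of CeA neurons were measured in every rat. *Sst* stood at means of 180 and 210 CPM and *Prkcd* at 31.7 and 34.9 CPM in CIE and Control rats. No tissue of another region was at hand for comparison, so these levels do not show that a punch held only CeA. The summed level of these 8 markers ran from 292 to 585 CPM in CIE and from 413 to 577 CPM in Control rats.
The punches also held markers of neighboring tissue. The summed level of 8 markers of striatal projection neurons ran from 507 to 3595 CPM in CIE and from 261 to 3981 CPM in Control rats, with CIE rat 2 and Control rat 10 far above the others. These 2 libraries also stood apart in several receptor genes, and results that rest on them are given with and without them.

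Promoter windows are shown for *Htr1f*, the member that differed between groups, and for *Htr1d* and *Htr6*. Both *Htr1d* and *Htr6* were highest in CIE rat 2 and Control rat 10, as were *Htr1b*, *Htr2a* and *Htr4*. RefSeq gave a window, 250 bases before to 50 after the annotated start in GRCr8, for 6 of the 10 genes. The reads had been counted on an older build, Rnor_6.0, so these coordinates belong to RefSeq only. The *Htr1f* window lies at chr11:16090616-16090915 on the minus strand, and its capitals mark its last ATG, which opens the final 9 bases. The annotated start may therefore be that of the reading frame and not of transcription, in which case this window would not be the promoter. The *Htr1d* window lies at chr5:153939485-153939784 on the plus strand, and its capitals mark the Sp1 box GGGCGG. The *Htr6* window lies at chr5:156595098-156595397 on the minus strand and has no capitals.
Htr1f: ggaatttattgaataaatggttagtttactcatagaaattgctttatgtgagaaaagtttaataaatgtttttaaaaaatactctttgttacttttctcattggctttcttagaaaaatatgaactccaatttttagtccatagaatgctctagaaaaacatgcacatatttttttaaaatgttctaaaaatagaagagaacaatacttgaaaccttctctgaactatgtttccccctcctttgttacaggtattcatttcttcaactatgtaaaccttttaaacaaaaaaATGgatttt
Htr1d: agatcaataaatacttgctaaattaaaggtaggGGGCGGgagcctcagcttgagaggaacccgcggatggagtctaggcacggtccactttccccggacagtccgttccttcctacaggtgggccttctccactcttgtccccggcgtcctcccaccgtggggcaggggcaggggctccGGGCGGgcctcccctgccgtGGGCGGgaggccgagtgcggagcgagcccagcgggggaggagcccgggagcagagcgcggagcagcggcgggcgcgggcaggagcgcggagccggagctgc
Htr6: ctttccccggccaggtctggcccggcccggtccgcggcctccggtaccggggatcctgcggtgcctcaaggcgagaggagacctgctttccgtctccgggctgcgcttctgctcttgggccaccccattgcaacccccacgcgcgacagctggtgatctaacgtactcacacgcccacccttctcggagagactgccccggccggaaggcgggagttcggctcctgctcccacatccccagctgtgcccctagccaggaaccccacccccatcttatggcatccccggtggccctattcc
The *Htr1f* window, with that doubt about its start, had 26.3% G and C, and 0.284% of the 33469 rat windows had less. The windows of *Htr1d* and *Htr6* held 69.3% and 68% G and C, against a median of 51.7% over all windows. Both strands were searched for TATAAA, TGACGTCA, its half-site TGACG (also counted inside the full site), GGGCGG, GCGTGGGCG and CACGTG. These were in 14.2%, 1.83%, 21.2%, 33.1%, 0.544% and 6.42% of all windows, in that order. *Htr1d* held GGGCGG 3 times, *Htr7* (79.7% G and C) held TGACG and GCGTGGGCG once each, and the windows of *Htr1f*, *Htr6*, *Htr1b* and *Htr2c* held none of these letters.

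The first question was whether CIE rats differed from Control rats in the receptor transcripts. *Htr1f*, the 5-HT1F receptor of the Gi/o class, rose in CIE rats and was the single member past the 5% FDR. The other 9 genes were not past either threshold. The count at a nominal *p* value below 0.05, 1 of 10 genes, was close to the share among all genes (8.31%), and at the 5% FDR 1 of 10 stood beside 0.363%. The members had a median log2 fold change of 0.12, with 8 values above 0 and 2 below. In none of the 10 genes were the CIE and Control rats fully separated, as they were in 0.893% of all genes tested.

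**Figure D1:**
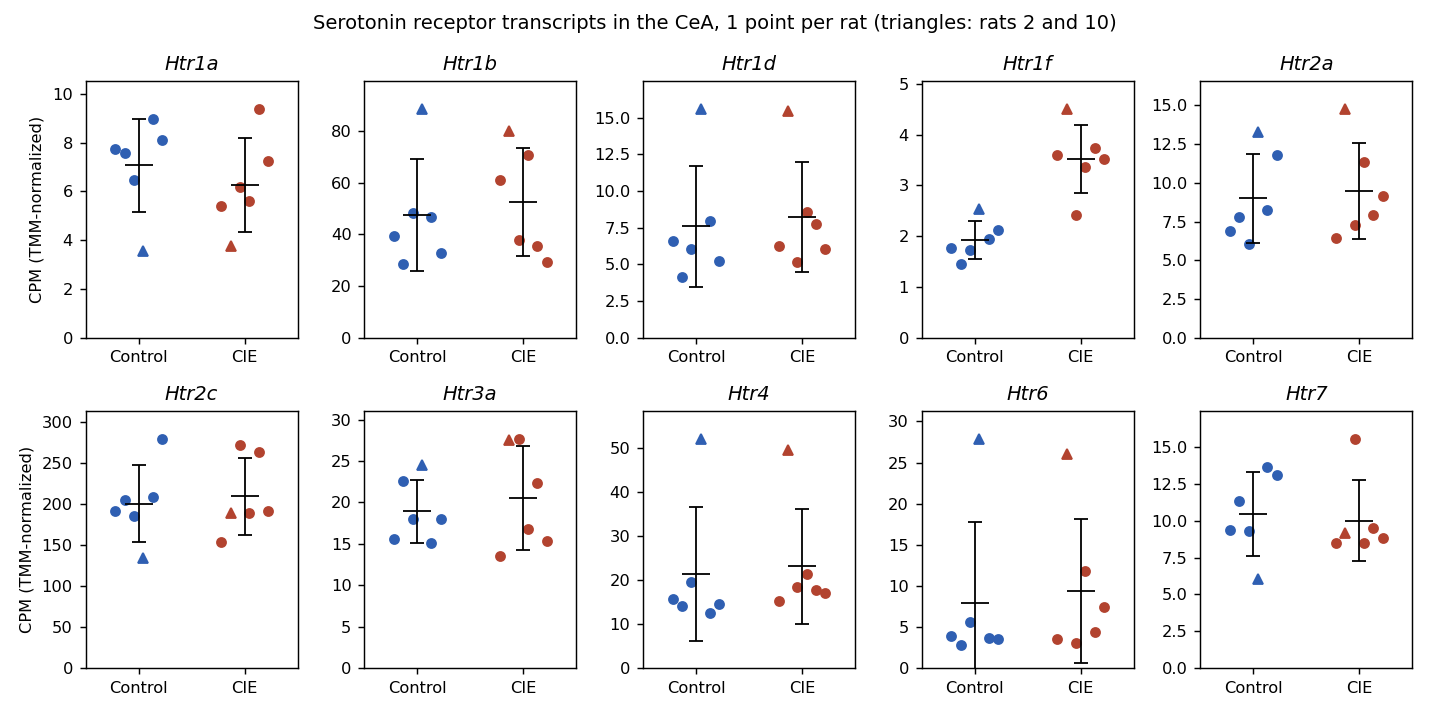
Level of each receptor gene in CPM (linear axes from 0), 1 point per rat, with the mean and SD of 6 rats per group (the lower SD bar of *Htr6* in Control rats runs below 0). Triangles are CIE rat 2 and Control rat 10. They are the highest rats of their groups in *Htr1b*, *Htr1d*, *Htr1f*, *Htr2a*, *Htr4* and *Htr6* and the lowest in *Htr1a*. In *Htr1f* 5 of 6 CIE rats lie above all Control rats.

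*Htr1f* was among the rarest of these transcripts by read number, with 75 to 285 counts per library. In CIE rats 1 to 6 it stood at 3.60, 4.51, 2.43, 3.36, 3.74 and 3.51 CPM. In Control rats 7 to 12 it stood at 1.77, 1.46, 1.73, 2.53, 1.94 and 2.11 CPM. The groups overlapped through 1 rat of each, CIE rat 3 and Control rat 10, and the other 5 CIE rats were above all Control rats. The means were 3.53 ± 0.673 CPM in CIE and 1.92 ± 0.369 CPM in Control rats (SD, n = 6 each), a fold change of 1.84 (95% interval 1.43 to 2.36). On the log2 scale the difference was 0.88 (SE 0.17) with FDR = 0.0405 by edgeR's quasi-likelihood test, which placed it at rank 68 of 20944 genes. The edgeR *p* value was 0.000133, and the two-sided exact permutation test of mean log2 CPM gave *p* = 0.00433. The 5% call was lost without any 1 of 9 rats (CIE rats 1, 2, 4 and 5, Control rats 7, 8, 9, 11 and 12), where the FDR reached 0.130, while the log2 fold change stayed between 0.79 and 0.98 and the *p* value at or below 0.000479. DESeq2 gave FDR = 7.34e-05, and limma-voom with sample quality weights gave FDR = 0.00526.

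The other Gi/o receptors varied more between rats than between groups. *Htr1a*, the autoreceptor of raphe cell bodies that is also made by many forebrain neurons, ran from 3.75 (median 5.89) to 9.40 CPM in CIE and from 3.54 (median 7.67) to 8.97 CPM in Control rats. Its log2 fold change was -0.17 (95% interval -0.66 to 0.32, edgeR FDR = 0.894). *Htr1b*, found at axon terminals where it holds back transmitter release, ran from 29.2 (median 49.6) to 80.0 CPM in CIE and from 28.6 (median 43.1) to 88.8 CPM in Control rats. The 2 ranges lay almost on each other, with a log2 fold change of 0.15 (-0.49 to 0.78, FDR = 0.934). *Htr1d*, another terminal receptor, ran from 5.18 (median 7.01) to 15.5 CPM in CIE and from 4.16 (median 6.29) to 15.6 CPM in Control rats. Its log2 fold change was 0.12 (-0.58 to 0.81, FDR = 0.953). As fold changes these intervals reached from 0.714 to 1.71 for *Htr1b* and from 0.670 to 1.75 for *Htr1d*, so smaller differences could not be resolved in these rats.

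Among the Gq/11 receptors, *Htr2c*, whose RNA is edited by adenosine deaminases, gave the most reads of the 10 genes, 7950 to 20925 per library. It ran from 154 (median 190) to 272 CPM in CIE and from 134 (median 199) to 280 CPM in Control rats. The ranges nested in each other and the fold change of 1.05 had a 95% interval of 0.816 to 1.34 (edgeR FDR = 0.948). *Htr2a*, the receptor through which classic hallucinogens act, ran from 6.44 (median 8.56) to 14.8 CPM in CIE and from 6.03 (median 8.03) to 13.3 CPM in Control rats. Its fold change was also 1.05, with a wider interval of 0.750 to 1.48 (FDR = 0.957). *Htr3a*, the obligatory subunit of the 5-HT3 channel, ran from 13.5 (median 19.5) to 27.7 CPM in CIE and from 15.0 (median 17.9) to 24.5 CPM in Control rats, with a fold change of 1.08 (0.819 to 1.43, FDR = 0.917). The partner subunit *Htr3b*, not a member, had 2 to 15 counts per library and was not tested.

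The Gs receptors held both the widest and some of the narrower spreads. *Htr6* ran from 3.06 (median 5.89) to 26.0 CPM in CIE and from 2.85 (median 3.71) to 27.9 CPM in Control rats, a 9.79-fold span over the 12 rats. CIE rats 2 and 4 (26.0 and 11.8 CPM) and Control rat 10 (27.9 CPM) were the highest. Its fold change of 1.19 had an interval from 0.450 to 3.13 (FDR = 0.949). *Htr4* ran from 15.2 (median 18) to 49.6 CPM in CIE and from 12.5 (median 15.1) to 52.2 CPM in Control rats, with a fold change of 1.08 (0.616 to 1.90, FDR = 0.961). Apart from CIE rat 2 and Control rat 10 its values lay between 12.5 and 21.4 CPM. *Htr7* ran from 8.46 (median 8.99) to 15.6 CPM in CIE and from 6.03 (median 10.4) to 13.7 CPM in Control rats, and its highest value was in CIE rat 3. Its fold change was 0.957 (0.713 to 1.28, FDR = 0.958). Without Control rat 10 *Htr4* (log2 fold change 0.60, FDR = 0.420) and *Htr6* (1.26, FDR = 0.360) passed the nominal threshold in edgeR, higher in CIE, and without both rats 2 and 10 neither did (0.23 and 0.63, FDR = 0.625 for each).

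**Figure D2:**
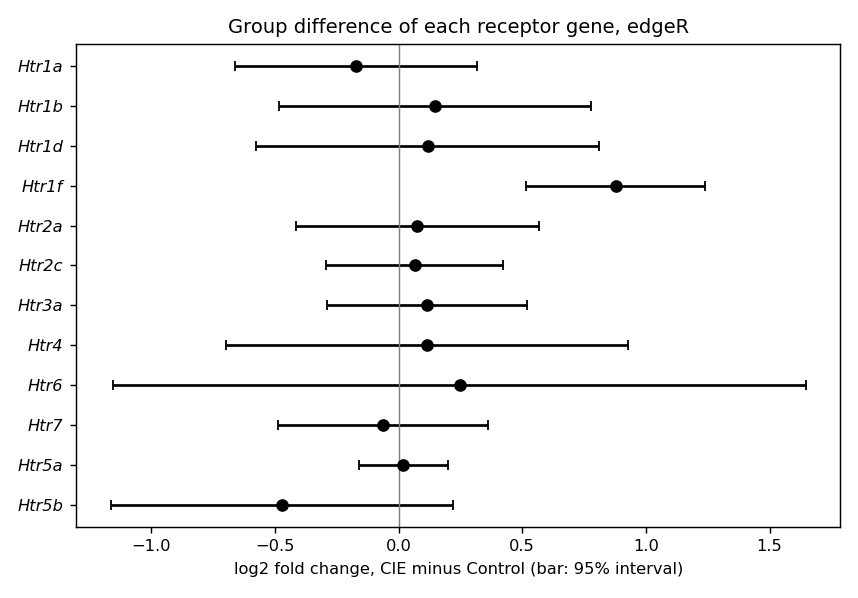
Log2 fold change (CIE minus Control) of the 10 receptor genes and of *Htr5a* and *Htr5b*, with 95% intervals from edgeR. The interval of *Htr1f* (0.52 to 1.24) lies above 0 and the other 11 intervals cross it.

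The receptor genes outside the 10 differed widely in their spread between rats. *Htr5a*, a Gi/o receptor, was nearly constant, at 12.7 ± 1.13 CPM in CIE and 12.6 ± 1.08 CPM in Control rats (SD, n = 6 each), and its log2 fold change of 0.02 had an interval of -0.16 to 0.20 (edgeR FDR = 0.972). *Htr5b* stood at 1.57 ± 0.767 and 2.17 ± 0.735 CPM (log2 fold change -0.47, -1.16 to 0.22, FDR = 0.763). *Htr2b* had 0 counts in all 12 libraries, which allows up to 0.0312 to 0.0775 CPM by library (3 counts, counting error only). *Gnaz*, a G protein gene known to be active in brain, and *Ttr*, *Lxn*, *Pmch* and *Kcnj13* of the marker lists were also at exactly 0 in all 12 libraries, so a 0 in this table may mean that the gene was not quantified, and *Htr2b* cannot be called absent. The relative spread between rats of the same group, edgeR's biological coefficient of variation, was 0.119 for *Htr5a* and 0.390 for *Htr5b*. It was 0.209 for *Htr2c*, 0.213 for *Htr1f*, 0.450 for *Htr4* and 0.748 for *Htr6*. No transcript lengths were at hand, so the genes were not ordered by level.

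The next question was whether *Htr1f* rose relative to the other receptors of the same library, a ratio that library scaling cannot move. The ratio of *Htr1f* counts to *Htr2a* counts gave the clearest separation. On the log2 scale it ran from -1.75 to -0.84 in CIE and from -2.48 to -1.80 in Control rats, with no overlap, and the means differed by 0.80 (exact permutation *p* = 0.00216, the smallest that 6 against 6 rats allow). The ratios to *Htr1a* (1.04, exact *p* = 0.0216), *Htr7* (0.92, exact *p* = 0.0476), *Htr2c* (0.80, exact *p* = 0.0411) and *Htr3a* (0.79, exact *p* = 0.0195) were also higher in CIE rats. So were those to *Htr1b* (0.72, exact *p* = 0.0260) and *Htr1d* (0.72, exact *p* = 0.0173). The ratios to *Htr4* (0.68, exact *p* = 0.0606) and *Htr6* (0.49, exact *p* = 0.442) were past no threshold. All 9 tests share the *Htr1f* counts, their *p* values are unadjusted and *Htr1f* was chosen with its difference known, so they describe its difference against each gene and do not add independent evidence.

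**Figure D3:**
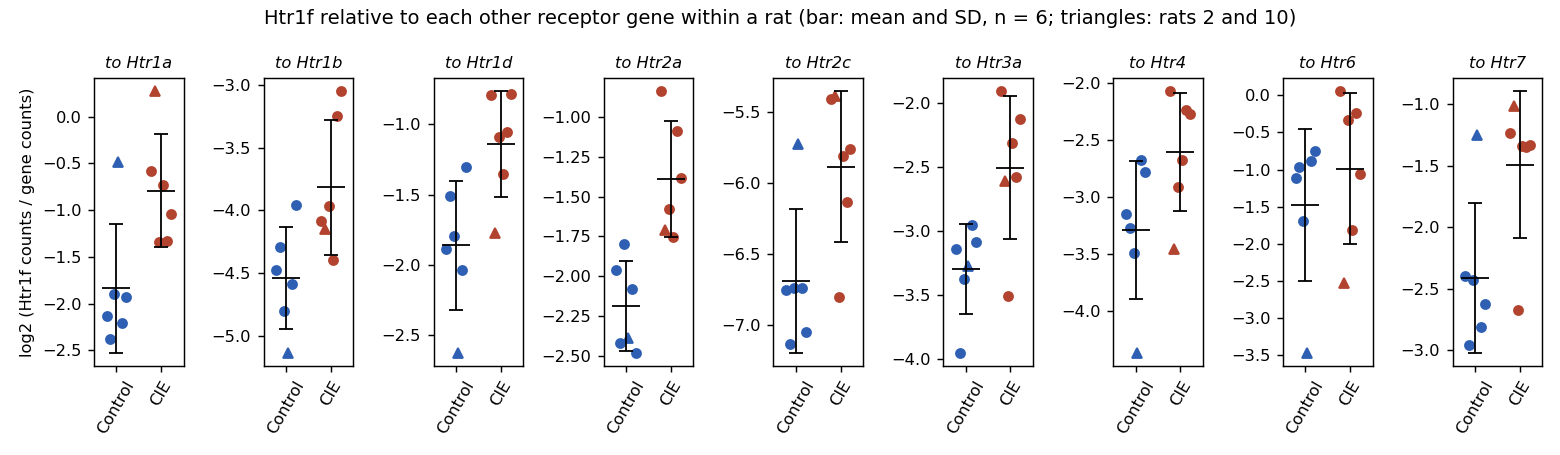
Log2 ratio of *Htr1f* counts to the counts of each other receptor gene, 1 point per rat, with the mean and SD of 6 rats per group, each panel on its own axis. The CIE rats lie above all Control rats in the ratio to *Htr2a*, and the groups overlap in the 8 other ratios.

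Markers of other cell types were set beside *Htr1f*. The summed level of 10 markers of cortical and basolateral glutamatergic neurons ran from 58.8 to 532 CPM in CIE and from 55.8 to 211 CPM in Control rats. Of these 10 markers 4 (*Rspo2*, *Fezf2*, *Slc30a3* and *Neurod2*) were higher in CIE at a nominal edgeR *p* value below 0.05, 0 passed the 5% FDR and the median log2 fold change was 1.43. In the exact permutation test these 4 did not pass, with *p* = 0.0974, 0.102, 0.0996 and 0.104 in that order. The cortical marker *Emx1* had 0 counts in the lowest library. The summed level of 8 myelin markers ran from 5607 to 13543 CPM in CIE and from 8572 to 16056 CPM in Control rats, with 8 of 8 lower in CIE at the nominal threshold, 0 at the 5% FDR and a median log2 fold change of -0.58 (exact permutation *p* values from 0.00649 to 0.0714). CIE rats 3, 5 and 6 had cortical and basolateral sums inside the Control range (58.8, 77.7 and 127 CPM) and *Htr1f* at 2.43, 3.74 and 3.51 CPM, which in rats 5 and 6 was above all Control rats. Control rats 10 and 12 had the highest Control sums (211 and 134 CPM) and the highest Control *Htr1f* (2.53 and 2.11 CPM). CIE rats 1 and 6, with myelin sums inside the Control range (8970 and 13543 CPM), had *Htr1f* at 3.60 and 3.51 CPM. With the cortical and basolateral score as a covariate the log2 fold change of *Htr1f* was 0.72 (edgeR FDR = 0.198), with the myelin score 0.96 (FDR = 0.174) and with the striatal score 0.81 (FDR = 0.0345). The slope of *Htr1f* on the cortical and basolateral score was 0.13 on the log2 scale per log2 unit (FDR = 0.347). Whether the amount of cortical tissue or of myelin sets the level of *Htr1f* was not tested.

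**Figure D4:**
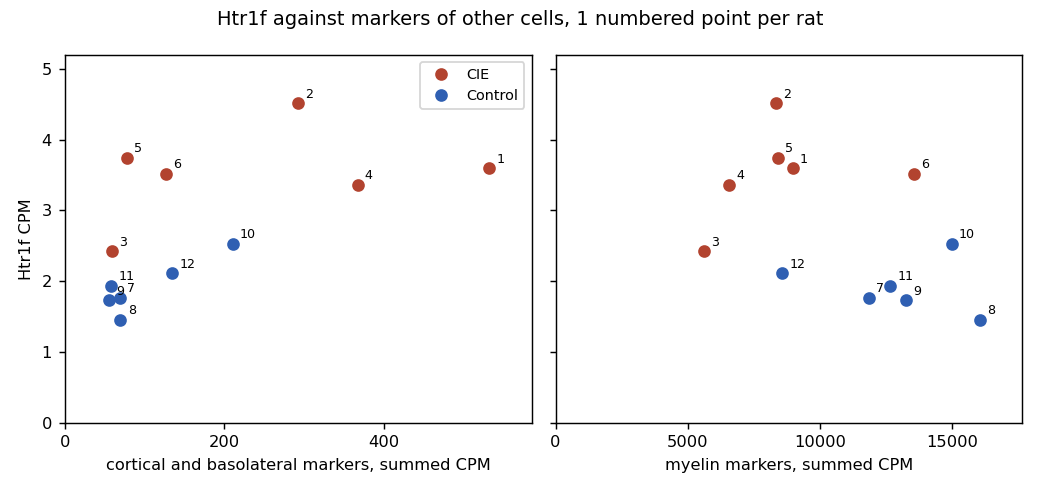
*Htr1f* level in CPM against the summed CPM of 10 cortical and basolateral markers (left) and of 8 myelin markers (right), linear axes, 1 point per rat with its number. CIE rats 5 and 6 lie above all Control rats at cortical and basolateral sums of 77.7 and 127 CPM, and CIE rat 3 (58.8 CPM) does not. Control rats 10 and 12, with the highest Control sums (211 and 134 CPM), have the highest Control *Htr1f*. CIE rats 1 and 6 lie above all Control rats at myelin sums of 8970 and 13543 CPM.

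The genes whose levels followed *Htr1f* most closely were taken from all genes tested, by Pearson's *r* over the 12 rats with the group means removed, as a description. They were *Kntc1* (*r* = 0.95), a kinetochore gene, *Gtf2e1* (*r* = 0.94), a subunit of a general transcription factor, LOC363771 (*r* = 0.91), LOC690288 (*r* = 0.90) and *Snrnp200* (*r* = 0.90), a spliceosome helicase. Their own log2 fold changes were 0.00, -0.13, 0.05, 0.28 and 0.00 in that order, and none passed the nominal threshold, which does not show that they were equal between the groups. As the 5 highest values of *r* among 20944 genes over 12 rats, they are high in part through that choice, and no chance value was computed.

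A further question was how the receptors moved with the striatal tissue in the punch, since rats 2 and 10 stood apart. Fits with group and the mean log2 CPM of 8 striatal markers were added after the values had been seen. *Htr6*, a receptor known to be abundant in the striatum, rose by 0.84 (SE 0.08) on the log2 scale for each log2 unit of the score (edgeR FDR = 1.19e-05). *Htr4*, also known in the striatum, rose by 0.50 (SE 0.05, FDR = 1.86e-05). *Htr1d* rose by 0.42 (SE 0.06, FDR = 0.000152) and *Htr1b* by 0.40 (SE 0.05, FDR = 0.000105). *Htr1a* fell by 0.32 (SE 0.06, FDR = 0.00219). These 5 of the 10 receptor genes compare with 12.7% of all genes tested past the same threshold. The slopes of *Htr2a* (0.20, FDR = 0.0930), *Htr1f* (0.13, FDR = 0.216), *Htr3a* (0.10, FDR = 0.456), *Htr2c* (-0.17, FDR = 0.0629) and *Htr7* (-0.19, FDR = 0.108) did not pass. With the score in the fit, the biological coefficient of variation went from 0.748 to 0.275 for *Htr6*, from 0.450 to 0.169 for *Htr4*, from 0.389 to 0.180 for *Htr1d*, from 0.353 to 0.154 for *Htr1b* and from 0.281 to 0.167 for *Htr1a*.

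**Figure D5:**
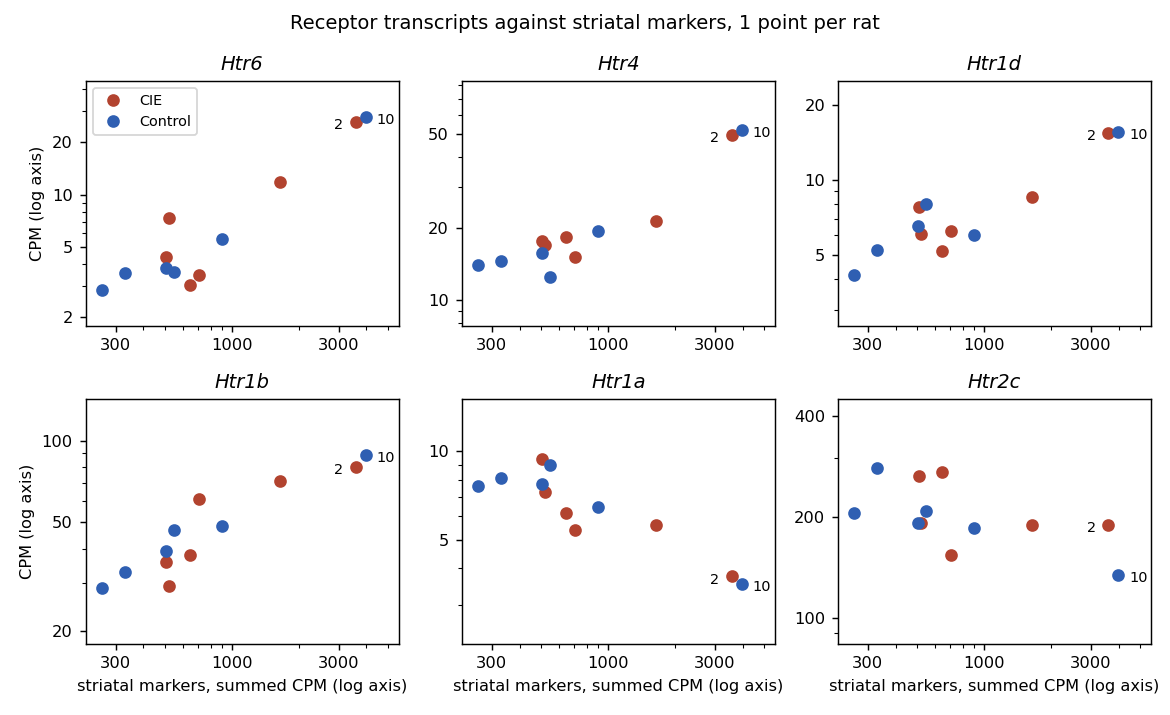
Level of 6 receptor genes in CPM against the summed CPM of 8 striatal markers, both axes logarithmic, 1 point per rat, with CIE rat 2 and Control rat 10 numbered. *Htr6*, *Htr4*, *Htr1d* and *Htr1b* are highest and *Htr1a* is lowest in these 2 rats, which have marker sums of 3595 and 3981 CPM.

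The calls depended on the 2 rats, though the signs of the called slopes did not. Without rats 2 and 10, with fewer rats and a narrower range of the score, 82 of 21064 genes passed the 5% FDR and none of the 10 receptor genes did. The slope of *Htr1b* was then 0.52 (SE 0.11, edgeR FDR = 0.0743), no smaller than in all 12 rats. That of *Htr6* was 0.59 (SE 0.18, FDR = 0.323), against 0.84 in all 12 rats. The slopes of *Htr1d* (0.27, SE 0.13), *Htr4* (0.20, SE 0.08) and *Htr1a* (-0.20, SE 0.11) were also smaller than in all 12 rats and kept their sign. Among the slopes not called in all 12 rats, *Htr1f* (-0.00595, SE 0.14), *Htr2a* (-0.0115, SE 0.15) and *Htr3a* (-0.16, SE 0.14) changed sign. Those of *Htr2c* (-0.19, SE 0.12) and *Htr7* (-0.15, SE 0.15) did not. CIE rat 4, with the next highest striatal sum (1638 CPM), had the next highest *Htr6* (11.8 CPM) after rats 2 and 10. On the score of cortical and basolateral neurons none of the 10 slopes passed the 5% FDR, beside 0.234% of all genes tested. Those of *Htr6* (0.74), *Htr4* (0.33), *Htr1b* (0.31), *Htr1d* (0.26) and *Htr1a* (-0.23) had the signs of their striatal slopes. Without rats 2 and 10 those of *Htr4* (-0.0151) and *Htr1d* (-0.00201) changed sign. CIE rats 2 and 4 and Control rat 10, highest in striatal markers, also had high cortical and basolateral sums (293, 367 and 211 CPM). Each fit held 1 score, so these slopes do not separate the 2 tissues. The slope of *Htr2a* on the cortical and basolateral score was 0.23 in all 12 rats (FDR = 0.196) and 0.13 without rats 2 and 10 (FDR = 0.628). It was 0.33 without CIE rat 1 (FDR = 0.0317), where 50 of 21152 genes passed the 5% FDR. CIE rat 1 had the highest cortical and basolateral sum (532 CPM) and the lowest *Htr2a* of the CIE rats (6.44 CPM). No other single rat was left out of this fit, so the call rests on that choice. Whether the amount of striatal or cortical tissue sets the receptor levels was not tested.

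Other genes of the serotonin system were read from 4 lists of 43 genes, of which 38 were tested. At the nominal threshold in edgeR 1 was higher and 1 lower in CIE, none passed the 5% FDR, and the median log2 fold change was 0.01. In the list of synthesis, storage, uptake and breakdown, *Qdpr*, which regenerates the cofactor of tryptophan hydroxylase, had the highest level and stood at 189 ± 31.8 CPM in CIE and 148 ± 26.9 CPM in Control rats (SD, n = 6 each). Its log2 fold change was 0.35 (SE 0.13, edgeR FDR = 0.451, exact permutation *p* = 0.0346). Among G proteins and phospholipase C, *Gnai3*, a Gi subunit, stood at 35.3 ± 1.38 and 39.2 ± 2.45 CPM (log2 fold change -0.15, SE 0.06, FDR = 0.462, exact permutation *p* = 0.0152). *Gnas*, the Gs subunit and the most abundant of that list by CPM, stood at 1289 ± 236 and 1520 ± 296 CPM (log2 fold change -0.24, FDR = 0.732). Of 12 receptor partners and editing enzymes none passed the nominal threshold, and *Arrb1*, the arrestin with the highest level of that list, stood at 330 ± 26.6 and 315 ± 27.4 CPM (FDR = 0.866).

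The defining genes of raphe neurons were near the floor. *Tph2*, the tryptophan hydroxylase of these neurons, did not exceed 1.43 CPM (CIE rat 2), *Slc6a4*, the serotonin transporter, had 4 to 52 counts per library and *Fev*, their transcription factor, had 0 to 6. *Gata3* ran from 0.250 to 0.568 CPM. *Slc18a2*, the vesicular monoamine transporter, stood higher, at 14.1 CPM in CIE and 12.5 CPM in Control rats. Its log2 fold change was 0.16 (edgeR *p* = 0.0649, FDR = 0.634, exact permutation *p* = 0.0476).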

How the data were processed

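RNA-Seq libraries of CeA punches from 6 CIE and 6 Control rats were read from the deposited table of raw counts per gene. According to the study's methods, the authors aligned paired-end reads with BWA to Rnor_6.0, counted them with HTSeq and compared groups with DESeq2 1.26. The annotation and the strand and overlap settings are not given in the sources used here, so genes that overlap another gene may share reads. Groups follow the treatment label, because titles of both groups end alike. The rats were group housed, and the labels do not say which of them shared a cage, so cage could not be put in the fit.

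Counts were tested in edgeR 4.0.16 under R 4.3.3 (default expression filter, TMM scaling, quasi-likelihood F test, two-sided, Benjamini-Hochberg adjustment over all 20944 genes tested). Of 37209 genes, 7757 had 0 counts in every rat. The SE was derived from F and the log2 fold change, and intervals are 95%. Single values and ratios (0.5 added to each count) were tested with exact permutation tests over 924 divisions of the rats. Alternatives used DESeq2 1.42.0, limma 3.58.1 (voom with sample quality weights), other scalings and filters, marker scores (mean log2 CPM of a list) as covariates, and each rat left out. Named genes were the 10 members, the other receptor genes, genes of the other serotonin lists with a nominal *p* value below 0.05 or the highest CPM, the raphe genes, and the 5 genes most like *Htr1f*. The members and lists were chosen with earlier results of these data known. Promoter windows came from RefSeq (GRCr8), where all 10 symbols matched. With 39082548 or more counts per library, the 75 to 285 counts of *Htr1f* are the thinnest of the members.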

Additional observations from a re-analysis of the deposited data

Results flagged for a closer look

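In 9 of 40 checks of a gene within a group of 6, the highest or lowest rat stood apart from the others by a gap of over 0.625 of the group's range, where chance gives about 1 in 20. All but the check of *Htr7* lay in CIE rat 2 or Control rat 10. *Htr1b* was at 88.8 CPM in Control rat 10, beside 28.6 to 48.4 CPM in the other Control rats. *Htr1d* was at 15.5 CPM in CIE rat 2, beside 5.18 to 8.59 CPM, and at 15.6 CPM in Control rat 10, beside 4.16 to 7.98 CPM. *Htr4* was at 49.6 CPM in CIE rat 2, beside 15.2 to 21.4 CPM, and at 52.2 CPM in Control rat 10, beside 12.5 to 19.4 CPM. *Htr6* was at 27.9 CPM in Control rat 10, beside 2.85 to 5.60 CPM. *Gnas* was lowest in Control rat 10, at 945 CPM beside 1485 to 1746 CPM, and *Tph2* was highest in CIE rat 2, at 1.43 CPM beside 0.247 to 0.666 CPM. *Htr7* was at 15.6 CPM in CIE rat 3, beside 8.46 to 9.54 CPM in the other CIE rats.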

How the results depend on the processing

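The count of receptor genes at the 5% FDR, 1 in the fit as reported, was 0 with no filter (*Htr1f* FDR = 0.0575), with the cortical and basolateral score (0.198) or the myelin score (0.174) as a covariate, and without rats 2 and 10 (0.0552, chosen after seeing the data), and 0 to 1 with each rat left out. It was 1 under the other scalings, a minimum of 10 counts, DESeq2, limma-voom and the striatal score. The log2 fold change of *Htr1f* was 0.72 to 0.97 over these alternatives. The count at a nominal *p* value below 0.05 was 1 in all of them and 1 to 3 with each rat left out (3 without Control rat 10). The count of other serotonin genes was 2, against 5 in limma-voom, 4 with the myelin score and 3 with the cortical and basolateral or the striatal score. It was 2 to 5 with each rat left out, 5 without Control rat 10. Over all genes the nominal count also went up, from 1740 to 3596 in limma-voom, 2162 with the myelin score and 2420 without Control rat 10. The cause was not tested.

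Genes not called changed sign as follows (log2 fold change). With the cortical and basolateral score, *Htr1a* was 0.0946, *Htr1b* -0.26, *Htr1d* -0.17, *Htr2a* -0.17, *Htr4* -0.20, *Htr6* -0.46, *Htr7* 0.13 and *Htr5a* -0.0110. With the striatal score, *Htr1a* was 0.0226, *Htr1b* -0.0616, *Htr1d* -0.0868, *Htr2a* -0.0720, *Htr4* -0.11, *Htr6* -0.0459 and *Htr7* 0.0817. With the myelin score, *Htr2a* was -0.000914, *Htr2c* -0.21 and *Htr5a* -0.0238. In limma-voom *Htr2c* was -0.0564, and without rats 2 and 10 *Htr2c* was -0.000297 and *Htr5a* -0.0216. With each rat left out, *Htr1b* ran from -0.0138 to 0.42, *Htr1d* from -0.16 to 0.46, *Htr2a* from -0.0942 to 0.22, *Htr2c* from -0.0229 to 0.18, *Htr4* from -0.26 to 0.60, *Htr6* from -0.39 to 1.26, *Htr7* from -0.23 to 0.0241 and *Htr5a* from -0.0102 to 0.0642.

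With each rat left out, exact *p* values of the *Htr1f* ratios to *Htr1b* (up to 0.0563), *Htr2c* (0.0671), *Htr7* (0.0606) and *Htr4* (0.0173 to 0.121) crossed 0.05, and those to *Htr1a*, *Htr1d*, *Htr2a* and *Htr3a* did not. The alternatives for an order of receptor levels were not run, since no transcript lengths were at hand. No paired analysis was run, because the paper describes random assignment of rats to the groups and the labels give no pairs. Depth limited *Htr1f* to 75 counts in its thinnest library, Control rat 11.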

Other observations

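Lists of other cell types gave no further difference at the 5% FDR in edgeR. Of 5 tested claustrum and endopiriform markers 1 was higher in CIE at the nominal threshold, and of 7 caudal interneuron markers 1 was higher. None of 4 GABAergic markers, 7 thalamic and hypothalamic markers, 8 striatal markers, 4 raphe markers and 3 choroid plexus markers passed it in edgeR. The summed GABAergic level ran from 1708 to 2200 CPM in CIE and from 1960 to 2215 CPM in Control rats. Of the 8 CeA markers, *Crh* (5.97 and 8.15 CPM in CIE and Control, log2 fold change -0.45, FDR = 0.472) and *Nts* (27.9 and 38.3 CPM, -0.46, FDR = 0.584) were lower in CIE at the nominal threshold.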
